A study of Mus musculus with 2 samples.

Results

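Gpnmb-positive nuclei of the contused mouse spinal cord, named lipid-loaded phagocytes from their RNA, are described here. They were chosen by their own counts: at least 2 unique molecular identifiers (UMIs, one per captured RNA molecule) of Gpnmb, at least 2 UMIs summed over the leukocyte genes Ptprc, Cd84, Inpp5d and Dock2, and at most 5 summed over the neuronal genes Snhg11, Rbfox3 and Syt1. The rule found 1338 of 31743 nuclei, 632 of 16949 with AEVs and 706 of 14794 with PBS. The AEVs group consisted of wild-type C57BL/6 mice with a T10 contusion that were given athlete-derived extracellular vesicles by tail vein, once a day for 5 days, at 100 µg of vesicle protein in 100 µL PBS. The PBS group consisted of C57BL/6 wild-type mice with the same contusion that were given 100 µL PBS alone on the same days. Mice of both groups were 6 to 8 weeks old, were injured by a 5 g rod, 1 mm across, falling 6 cm, received antibiotics for 5 days and had their bladders emptied daily. Injured cords were collected and frozen on day 7, and the nuclei of 3 mice per group were pooled into 1 library. Uninjured cord was not analysed here, so each value below is from injured tissue.

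Gpnmb encodes a transmembrane glycoprotein of late endosomes and lysosomes that macrophages and microglia make when they take up lipid-rich debris. After a contusion, myelin debris is cleared both by microglia, which live in the cord, and by macrophages that derive from blood monocytes, and cells of either origin can come to resemble foam cells. Such cells carry engulfed cholesterol through the lysosome, esterify it for storage in droplets, and export it through ABC transporters to apolipoproteins. P2ry12, Siglech, Gpr34 and Tmem119 mark resting microglia, and microglia lower them when activated, so their absence does not show where a cell came from.

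The libraries were of like size. The AEVs library held 17055 barcodes and 81875882 UMIs, and the PBS library 15325 barcodes and 82953601 UMIs. The kept nuclei had medians of 2573.0 UMIs in AEVs and 2704.5 UMIs in PBS. The Gpnmb-positive nuclei were shallower, with medians of 2007.5 UMIs and 1324.5 genes in AEVs and 2221.5 UMIs and 1401.0 genes in PBS. The libraries shared 177 barcode sequences, none of them between Gpnmb-positive nuclei of both. Because each group is 1 pooled library, no test between groups was possible. Intervals in brackets are at 95% and cover counting error only, so they leave out differences between mice, dissections and libraries. Intervals of gene ratios also treat every UMI as independent, so they leave out the spread between nuclei.

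Gpnmb-positive nuclei made up 3.73% (3.45 to 4.03) of kept nuclei in AEVs and 4.77% (4.43 to 5.13) in PBS. The share was lower with AEVs, at a ratio of 0.781 (0.701 to 0.871). Among the nuclei that met the leukocyte and neuron conditions alone, the share with at least 2 Gpnmb UMIs was 25.6% (632 of 2473, 23.8 to 27.3) in AEVs and 27.0% (706 of 2619, 25.3 to 28.7) in PBS, and these intervals overlap. The share of all nuclei also moves with how many neurons and glia each preparation yielded, and a share of nuclei does not give a number of cells in the cord.

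**Figure D1:**
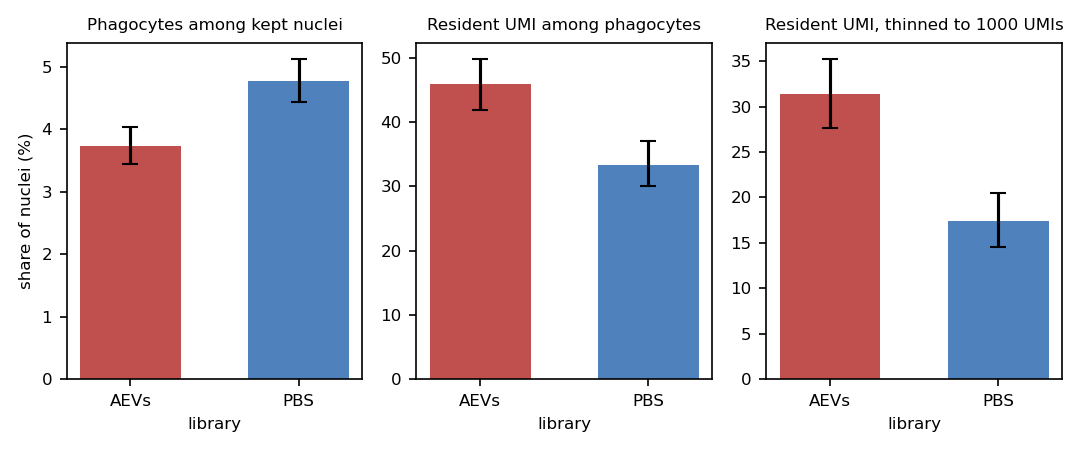
Bar panels, AEVs left of PBS, show the percentage of kept nuclei that were Gpnmb-positive, the percentage of Gpnmb-positive nuclei with at least 1 UMI of P2ry12, Siglech, Gpr34 or Tmem119, and the same percentage after each nucleus was thinned to 1000 UMIs; error bars are Clopper-Pearson intervals for counting error. The first share was lower in AEVs (3.73% against 4.77% in PBS) and the second was higher (45.9% against 33.4% in PBS), also after thinning (31.4% against 17.4% in PBS).

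Around the Gpnmb threshold the counts changed by degrees rather than in a step. With the other conditions met, 178 AEVs and 213 PBS nuclei had exactly 1 Gpnmb UMI and lay just outside, and 103 AEVs and 112 PBS nuclei had exactly 2 and lay just inside. Levels are given as CPM, the UMIs of a gene per 1000000 UMIs of the nuclei named. Atp6v0d2 stood at 29.1 CPM in AEVs and 53.9 CPM in PBS just outside the threshold, and at 73.6 CPM in AEVs and 179 CPM in PBS just inside it. Nuclei with no Gpnmb UMI numbered 1663 in AEVs and 1700 in PBS. The leukocyte condition left out 84 AEVs and 122 PBS nuclei that had a sum under 2, while 29 AEVs and 28 PBS nuclei were just inside with a sum of exactly 2. The neuron condition left out 101 AEVs and 106 PBS nuclei, whose median totals of 14011 UMIs in AEVs and 23371 UMIs in PBS were far above those of the nuclei kept, and no nucleus in either library had a neuron sum of exactly 6.

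Free RNA was gauged in neuron-marker nuclei, which have at least 20 UMIs of the 3 neuronal genes and none of the 4 leukocyte genes (4328 in AEVs, 2832 in PBS). Neuronal nuclei with a stray leukocyte UMI are thus left out, so the shares given here can understate free RNA of leukocytes. At least 1 Gpnmb UMI was found in 5.55% of them in AEVs and 7.10% in PBS, but at least 2 in only 0.578% in AEVs and 0.600% in PBS, although their medians of 8054.0 UMIs in AEVs and 10561 UMIs in PBS were much deeper. Atp6v0d2 had a UMI in 30.2% of Gpnmb-positive nuclei in AEVs and 45.8% in PBS, against 0.185% of neuron-marker nuclei in AEVs and 0.671% in PBS.

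The phagocyte name was set beside marker lists. The genes of its own list, Gpnmb, Atp6v0d2, Apobec1 and Cd84, were chosen with earlier results of these data known. Their levels therefore describe the nuclei and do not test the name. Gpnmb, on chromosome 6 (chr6:49036546-49070929, plus strand, mm10), stood at 3376 CPM in AEVs and 3183 CPM in PBS, which the rule itself set. Atp6v0d2 (chr4:19876841-19922605, minus strand) encodes a subunit of the proton pump that acidifies lysosomes and stood at 357 CPM in AEVs and 775 CPM in PBS. Apobec1 (chr6:122577792-122602444, minus strand), a cytidine deaminase that edits RNA, stood at 1333 CPM in AEVs and 1043 CPM in PBS, with a UMI in 91.3% of AEVs nuclei and 84.4% of PBS nuclei. Cd84 (chr1:171839697-171890718, plus strand), a leukocyte surface receptor that is part of the rule, stood at 1092 CPM in AEVs and 923 CPM in PBS.

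Markers of lymphocytes and dendritic cells were low, and those of neutrophils and macrophages were higher. B-cell markers summed to 0.590 CPM in AEVs and 2.34 CPM in PBS, with Ms4a1 at 0 in both libraries. The T and NK cell markers summed to 15.9 CPM in AEVs and 27.2 CPM in PBS, with Cd3e at 0 UMIs in AEVs and 3 in PBS. Dendritic cell markers summed to 10.6 CPM in AEVs and 18.3 CPM in PBS, with Xcr1 at 0 in both. Neutrophil markers summed to 226 CPM in AEVs and 303 CPM in PBS, most of it from Csf3r, a growth factor receptor, at 181 CPM in AEVs and 225 CPM in PBS, with S100a8 at 24.8 CPM in AEVs and 35.6 CPM in PBS. Macrophage markers summed to 335 CPM in AEVs and 586 CPM in PBS, most of it from Ms4a7 and F13a1, with Mrc1, the mannose receptor, at 31.9 CPM in AEVs and 52.4 CPM in PBS. Of the same list, Ccr2, the receptor of recruited monocytes, had 0 UMIs in AEVs and 14 in PBS, Cd163 had 2 in AEVs and 0 in PBS, and Lyve1 had 1 in AEVs and 2 in PBS. Lipid itself was not measured, so "lipid-loaded" rests on RNA alone.

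RNA of other cells was also present. Oligodendrocyte markers summed to 3301 CPM in AEVs and 4057 CPM in PBS, and a UMI of a myelin gene was found in 69.8% of Gpnmb-positive nuclei in AEVs and 73.2% in PBS, against 83.4% of neuron-marker nuclei in AEVs and 91.5% in PBS. The neuron-marker nuclei were much deeper, which raises such a share. Per UMI, Mbp, the myelin basic protein gene, stood at 757 CPM in Gpnmb-positive, 771 CPM in P2ry12-type (Gpnmb-negative microglia-type nuclei, defined below) and 205 CPM in neuron-marker nuclei in AEVs, and at 895 CPM in Gpnmb-positive, 895 CPM in P2ry12-type and 246 CPM in neuron-marker nuclei in PBS. The source of the myelin RNA was not tested. Fibroblast markers (Col1a1, Col1a2, Col3a1, Dcn and Lum) summed to 292 CPM in AEVs and 944 CPM in PBS. At least 3 fibroblast UMIs were held by 24 AEVs and 85 PBS nuclei, and the 5 richest nuclei held 66.3% of these UMIs in AEVs and 40.8% in PBS. Scrublet, which scores nuclei by likeness to simulated doublets, marked 13.9% of Gpnmb-positive nuclei in AEVs and 9.49% in PBS, against 8.26% of all kept nuclei in AEVs and 5.21% in PBS.

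To show what accompanies Gpnmb, the nuclei were set beside microglia-type nuclei of the same libraries. These had no Gpnmb UMI, met the same leukocyte and neuron conditions, and had at least 2 UMIs of P2ry12, Siglech, Gpr34 and Tmem119 together (1192 in AEVs with a median of 1582.5 UMIs, 1043 in PBS with a median of 1797.0 UMIs). They are called P2ry12-type nuclei below. The rule sorted these nuclei by the same counts, so the contrast is a description in each library separately. Of 9230 genes with at least 50 UMIs per library, 365 were at least 2-fold higher (3.95%) and 244 at least 2-fold lower (2.64%) in Gpnmb-positive nuclei in both libraries. By any size, 35.5% were higher and 35.8% lower in both libraries, which is the background for the list counts that follow. The median log2 ratio over all of them was -0.01 in AEVs and 0.01 in PBS.

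Atp6v0d2 stood at 357 CPM in Gpnmb-positive and 0.860 CPM (2 UMIs) in P2ry12-type nuclei of the AEVs library. In the PBS library it stood at 775 CPM in Gpnmb-positive and 2.56 CPM (6 UMIs) in P2ry12-type nuclei. The log2 ratios were 8.70 (6.84 to 11.75) in AEVs and 8.24 (7.12 to 9.69) in PBS. Apart from Gpnmb, whose absence defines the P2ry12-type nuclei, no gene named by the selection had a larger ratio in both libraries. Apobec1 differed by less, at 1333 CPM against 465 CPM in P2ry12-type nuclei in AEVs, and 1043 CPM against 354 CPM in PBS. It was thus present in both kinds of nuclei, whereas Atp6v0d2 was close to absent from one.

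Genes of lipid storage were mostly higher. Of 17 measured, 11 were higher and 6 lower in both libraries, with 6 past 2-fold higher and 1 past 2-fold lower, and the median log2 ratio was 0.45 in AEVs and 0.62 in PBS. Plin2, which coats lipid droplets, stood at 221 CPM in Gpnmb-positive and 40.0 CPM in P2ry12-type nuclei of the AEVs library, and at 228 CPM in Gpnmb-positive and 41.4 CPM in P2ry12-type nuclei of PBS. Soat1, the enzyme that esterifies cholesterol for storage, stood at 369.5 CPM against 142 CPM in P2ry12-type nuclei in AEVs, and 427 CPM against 138 CPM in PBS. Mgll, a monoglyceride lipase, and Pla2g7, a phospholipase that acts on oxidised phospholipids, followed the same direction, with Mgll at 262 CPM against 52.5 CPM in P2ry12-type nuclei in AEVs, and 206 CPM against 51.7 CPM in PBS.

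The fatty acid binding protein Fabp4, found in fat cells and in foam macrophages, had 97 UMIs in Gpnmb-positive and 0 in P2ry12-type nuclei in AEVs, and was at least 44.4-fold higher when 3 UMIs are set as the limit that a count of 0 allows. In PBS it had 194 UMIs in Gpnmb-positive and 3 in P2ry12-type nuclei, a log2 ratio of 6.15 (4.58 to 8.44). Fabp5, a close relative, was higher too, at 787 CPM against 169 CPM in P2ry12-type nuclei in AEVs, and 586 CPM against 195 CPM in PBS. Reads of Fabp5, Fth1, Ftl1, Ccl3 and Ccl4 can be shared with near-identical copies, and how the authors' counting split them is not given. Lpcat2, which makes phospholipids including platelet-activating factor, was the gene of the list past 2-fold lower, at 190.1 CPM against 600.5 CPM in P2ry12-type nuclei in AEVs, and 191 CPM against 741 CPM in PBS.

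All 6 genes of cholesterol efflux were higher in both libraries, 2 of them past 2-fold in both, with medians of 0.92 in AEVs and 1.44 in PBS. Abcg1, an exporter that loads cholesterol onto high-density lipoprotein, stood at 174 CPM against 85.6 CPM in P2ry12-type nuclei in AEVs, and 228 CPM against 76.8 CPM in PBS. Abca1, which loads it onto lipid-poor apolipoproteins, stood at 769 CPM against 423 CPM in P2ry12-type nuclei in AEVs, and 1333 CPM against 539.7 CPM in PBS. Nceh1, which frees cholesterol from its stored ester, stood at 232 CPM against 93.3 CPM in P2ry12-type nuclei in AEVs, and 285 CPM against 84.1 CPM in PBS. Genes of cholesterol synthesis were nearly level between the nuclei, with 5 of 9 higher in both libraries, none past 2-fold, and medians of 0.13 in AEVs and 0.22 in PBS.

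Lysosomal genes were higher in 18 of 24 and lower in 3, with 6 past 2-fold higher and none lower, and medians of 0.48 in AEVs and 0.42 in PBS. Gla, which removes galactose from glycolipids, stood at 66.1 CPM against 13.8 CPM in P2ry12-type nuclei in AEVs, and 41.7 CPM against 7.26 CPM in PBS. Lipa, the acid lipase that splits cholesteryl esters inside the lysosome, stood at 186 CPM against 71.4 CPM in P2ry12-type nuclei in AEVs, and 205 CPM against 70.9 CPM in PBS. Cathepsin S (Ctss), a protease that also trims the MHC class II invariant chain, went the other way, at 4082 CPM against 6539 CPM in P2ry12-type nuclei in AEVs, and 1891 CPM against 3787 CPM in PBS. Mcoln3, a lysosomal calcium channel, was among the 15 leading genes, at 80.9 CPM against 1.29 CPM in P2ry12-type nuclei in AEVs, and 51.0 CPM against 1.28 CPM in PBS.

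Among genes that microglia raise near damage, 12 of 15 were higher and 3 lower, 5 of them past 2-fold higher, with medians of 0.87 in AEVs and 0.76 in PBS. Spp1, the secreted protein osteopontin, stood at 4213 CPM against 443 CPM in P2ry12-type nuclei in AEVs, and 2481 CPM against 485 CPM in PBS. Lgals3, the galactose-binding lectin galectin-3, stood at 918 CPM against 81.7 CPM in P2ry12-type nuclei in AEVs, and 679 CPM against 47.8 CPM in PBS. Igf1, a growth factor, stood at 532 CPM against 86.5 CPM in P2ry12-type nuclei in AEVs, and 645 CPM against 143 CPM in PBS. Lilrb4a, an inhibitory receptor, had log2 ratios of 2.04 (1.84 to 2.25) in AEVs and 2.08 (1.82 to 2.34) in PBS. The tetraspanin Cd9, often listed with these genes, did not follow and stood at 1048 CPM against 1112 CPM in P2ry12-type nuclei in AEVs, and 688 CPM against 885 CPM in PBS.

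Receptors for debris were divided, with 6 of 16 higher and 7 lower in both libraries, shares near those over all genes. The scavenger receptor Msr1 stood at 124 CPM against 43.0 CPM in P2ry12-type nuclei in AEVs, and 121 CPM against 22.6 CPM in PBS. Cd36, which takes up oxidised lipoproteins, stood at 36.0 CPM against 7.74 CPM in P2ry12-type nuclei in AEVs, and 72.1 CPM against 5.12 CPM in PBS. Trem2, a lipid sensor of microglia and macrophages, was lower, at 742 CPM against 978 CPM in P2ry12-type nuclei in AEVs, and 495 CPM against 767 CPM in PBS. The antibody receptor Fcgr1 was lower as well, at 107 CPM against 314 CPM in P2ry12-type nuclei in AEVs, and 48.2 CPM against 167 CPM in PBS.

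The lipid-sensing receptor Pparg was the transcription factor with the clearest contrast, at 56.7 CPM against 2.15 CPM in P2ry12-type nuclei in AEVs, and 112 CPM against 5.12 CPM in PBS, log2 ratios of 4.72 (3.45 to 6.37) in AEVs and 4.45 (3.62 to 5.43) in PBS. Pparg was also found in neuron-marker nuclei, at 17.2 CPM in AEVs and 21.7 CPM in PBS. Tfec, a relative of Mitf, stood at 55.5 CPM against 7.74 CPM in P2ry12-type nuclei in AEVs, and 34.6 CPM against 2.99 CPM in PBS. Mitf itself, which drives lysosomal genes and Gpnmb in macrophages and melanocytes, stood at 601 CPM against 435 CPM in P2ry12-type nuclei in AEVs, and 859 CPM against 616 CPM in PBS. Of the 14 factors measured, 7 were higher and 7 lower in both libraries.

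Iron and heme genes were higher in 10 of 12 and lower in 1. Ftl1, the ferritin light chain, stood at 1749 CPM against 517 CPM in P2ry12-type nuclei in AEVs, and 1156 CPM against 474 CPM in PBS. Hmox1, which opens the heme ring, stood at 67.9 CPM against 25.4 CPM in P2ry12-type nuclei in AEVs, and 37.9 CPM against 20.9 CPM in PBS. Interferon-response genes did not accompany Gpnmb, with 1 of 16 higher and 11 lower in both libraries and medians of -0.37 in AEVs and -0.20 in PBS. The inflammatory list had medians of -0.63 in AEVs and -0.02 in PBS, with 2 of 7 measured genes higher and 4 lower in both libraries. The 4 measured MHC class II genes were all lower, 2 of them past 2-fold.

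All 14 homeostatic microglial genes were lower in both libraries and 12 were past 2-fold, but P2ry12, Siglech, Gpr34 and Tmem119 among them define the P2ry12-type nuclei. Of those not used, the fractalkine receptor Cx3cr1 stood at 106 CPM against 748 CPM in P2ry12-type nuclei in AEVs, and 121 CPM against 736 CPM in PBS. Csf1r, the receptor that microglia and macrophages need to survive, stood at 243 CPM against 984 CPM in P2ry12-type nuclei in AEVs, and 256 CPM against 1121 CPM in PBS. Their lower level here does not separate microglia that have lowered these genes from cells that never had them.

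Of the macrophage and monocyte list, 9 of 11 measured genes were higher and 1 lower in both libraries. In both, 7 were past 2-fold higher, and the medians were 1.72 in AEVs and 2.03 in PBS. Fibroblast markers were higher as well, all 4 measured past 2-fold in both libraries, with medians of 2.06 in AEVs and 2.07 in PBS. They summed to 292 CPM against 40.0 CPM in P2ry12-type nuclei in AEVs, and 944 CPM against 237 CPM in PBS. The part of fibroblast RNA in the macrophage and monocyte list was not tested. Ms4a7, a membrane protein of border and infiltrating macrophages, stood at 266 CPM against 28.8 CPM in P2ry12-type nuclei in AEVs, and 295 CPM against 29.5 CPM in PBS. Lyz2, a lysozyme of myeloid cells, stood at 1227 CPM against 333 CPM in P2ry12-type nuclei in AEVs, and 2015 CPM against 453 CPM in PBS. F13a1, a clotting transglutaminase carried by monocytes and some macrophages, went opposite ways by level. It stood at 30.7 CPM against 81.7 CPM in P2ry12-type nuclei in AEVs, and 224 CPM against 55.1 CPM in PBS. By share of nuclei the direction was the same in both libraries. In AEVs a F13a1 UMI was found in 3.80% of Gpnmb-positive and 2.18% of P2ry12-type nuclei (26 nuclei). In PBS the shares were 14.2% and 1.25% (13 nuclei).

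The other leading genes chosen by their ratio were Anpep, a surface peptidase, Gdf15, a stress cytokine, Stra6l, which transports retinol, Mmp12, the macrophage elastase, Ms4a14, Mreg, which acts in lysosome maturation, Clec4d, a C-type lectin, Mamdc2, Htr2b, a serotonin receptor, and Slamf7, a leukocyte receptor. Anpep stood at 118 CPM against 1.29 CPM in P2ry12-type nuclei in AEVs, and 98.8 CPM against 1.71 CPM in PBS, and Htr2b at 127 CPM against 2.15 CPM in P2ry12-type nuclei in AEVs, and 149.8 CPM against 8.54 CPM in PBS. Mmp12 was concentrated in few nuclei: 36 AEVs and 53 PBS nuclei had a UMI, and 5 nuclei held 62.2% of the Mmp12 UMIs in AEVs and 63.2% in PBS. The leading lower genes included Crybb1, Siglech, Ptgs1, Capn3, Rhobtb1, Tmem119, Atp8a2, Selplg and Abca9. Ptgs1, a cyclooxygenase, stood at 31.3 CPM against 286 CPM in P2ry12-type nuclei in AEVs, and 19.7 CPM against 228 CPM in PBS.

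**Figure D2:**
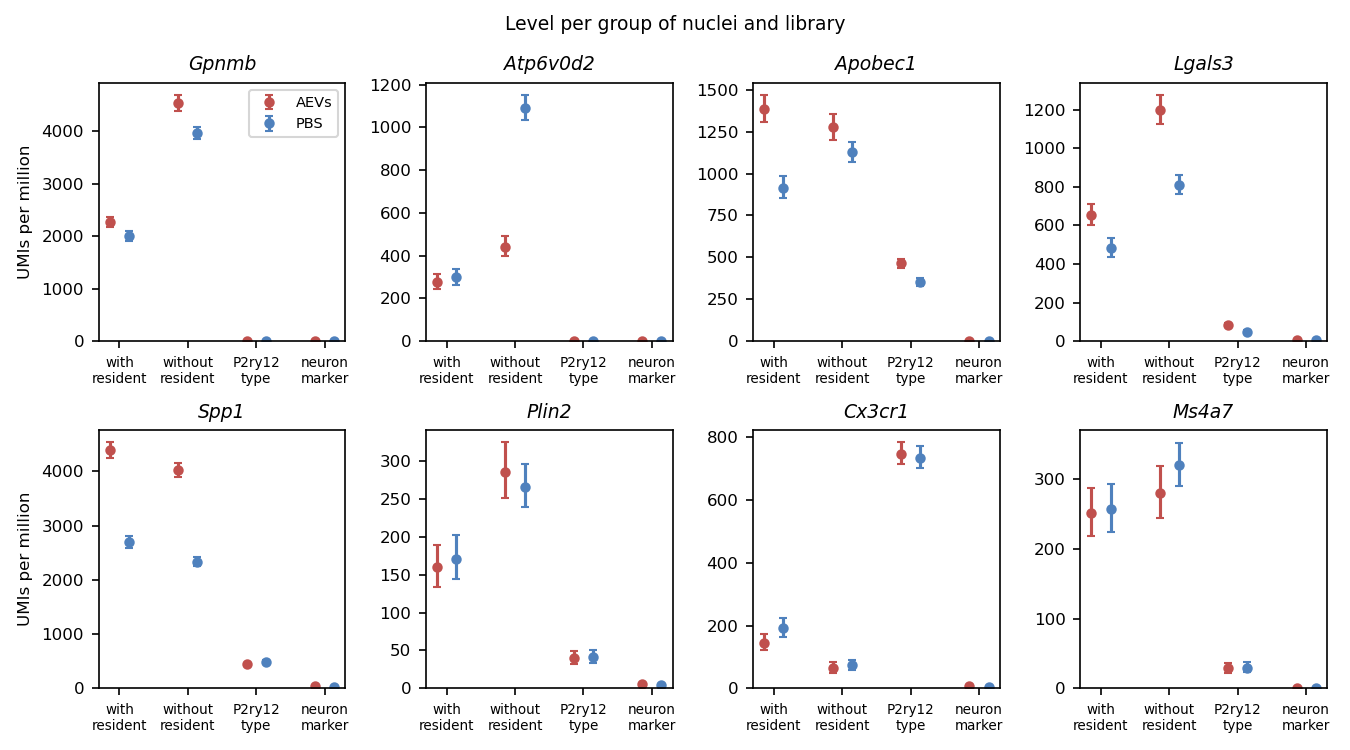
Levels in CPM (linear axis) of Gpnmb, Atp6v0d2, Apobec1, Lgals3, Spp1, Plin2, Cx3cr1 and Ms4a7 in Gpnmb-positive nuclei with and without a resident-microglia UMI, P2ry12-type nuclei and neuron-marker nuclei, AEVs left of PBS, with Poisson intervals for counting error. In AEVs, Atp6v0d2 was 277 CPM with and 442 CPM without a resident UMI, and 0.860 CPM in P2ry12-type nuclei. In PBS it was 298 CPM with and 1092 CPM without a resident UMI, and 2.56 CPM in P2ry12-type nuclei. Cx3cr1 ran the other way.

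The Gpnmb-positive nuclei were next divided by the resting-microglia genes, with at least 1 UMI of P2ry12, Siglech, Gpr34 or Tmem119 against none. A UMI was found in 290 of 632 AEVs nuclei (45.9%, 41.9 to 49.9) and in 236 of 706 PBS nuclei (33.4%, 30.0 to 37.0), a ratio of 1.37 (1.15 to 1.64). Detection depends on depth, so each nucleus was also thinned to 1000 UMIs, which left out 24 AEVs and 28 PBS nuclei that had fewer. The share was then 31.4% (27.7 to 35.3) in AEVs and 17.4% (14.6 to 20.5) in PBS, a ratio of 1.81 (1.43 to 2.29). Neuron-marker nuclei thinned alike had such a UMI in 1.18% in AEVs and 1.48% in PBS, and P2ry12-type nuclei in 91.9% in AEVs and 90.6% in PBS. P2ry12-type nuclei were chosen for at least 2 UMIs of these 4 genes, so their share was set by their rule. The share in Gpnmb-positive nuclei was higher in AEVs than in PBS, beyond counting error. This difference was not particular to them. Nuclei that met the leukocyte and neuron conditions without a Gpnmb UMI had a share, unthinned, of 85.1% in AEVs and 76.2% in PBS. With exactly 1 Gpnmb UMI the share was 71.3% in AEVs and 60.6% in PBS.

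Of the 4 genes that mark Gpnmb-positive nuclei, 3 were lower with a resident UMI in both libraries. The rule used Gpnmb and Cd84. Gpnmb stood at 2274 CPM in nuclei with and 4540.2 CPM in nuclei without a resident UMI in AEVs, and at 2006 CPM with and 3964 CPM without in PBS. Atp6v0d2 stood at 277 CPM with against 442 CPM without a resident UMI in AEVs, and 298 CPM with against 1092 CPM without in PBS, log2 ratios of -0.67 in AEVs and -1.87 in PBS. Cd84 had log2 ratios of -0.15 in AEVs and -0.17 in PBS. Apobec1 was divided, at 1388 CPM with against 1276 CPM without a resident UMI in AEVs, and 916 CPM with against 1127 CPM without in PBS. Of 6265 genes measured, 7 were at least 2-fold higher (0.112%) and 12 at least 2-fold lower (0.192%) with a resident UMI in both libraries. By any size, 29.3% of them were higher and 28.8% lower in both libraries, which is the background for the list counts of this contrast. Median totals were 2041.0 UMIs with and 1992.0 without in AEVs, and 2463.5 with and 2096.5 without in PBS. The highest totals were 49150 UMIs with and 20313 without in AEVs, and 48096 with and 28620 without in PBS. Deep nuclei weigh more in these levels, which come from summed UMIs.

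The genes higher with a resident UMI were led by Cx3cr1, at 146 CPM with against 64.3 CPM without a resident UMI in AEVs, and 193 CPM with against 74.0 CPM without in PBS. S100a6, a calcium-binding protein, stood at 701 CPM with against 313 CPM without a resident UMI in AEVs, and 615 CPM with against 222 CPM without in PBS. Slco2b1, an organic anion transporter known in microglia, stood at 123 CPM with against 37.6 CPM without a resident UMI in AEVs, and 143 CPM with against 72.4 CPM without in PBS. Selplg, Gabbr1, St3gal6, Fgd2, Dbi, Pld4 and C4b completed the 10 leading genes, with log2 ratios between 0.85 and 1.14. Of 7 homeostatic genes not used in the split, 6 were higher and 1 lower in both libraries, with medians of 0.61 in AEVs and 0.83 in PBS.

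The genes lower with a resident UMI included several of lipid handling. Cd36 stood at 17.2 CPM with against 55.8 CPM without a resident UMI in AEVs, and 17.6 CPM with against 108 CPM without in PBS. Fabp4 stood at 21.8 CPM with against 94.7 CPM without a resident UMI in AEVs, and 39.9 CPM with against 125 CPM without in PBS, and Pparg at 34.5 CPM with against 80.1 CPM without a resident UMI in AEVs, and 57.5 CPM with against 149 CPM without in PBS. Mmp12 stood at 19.5 CPM with against 188 CPM without a resident UMI in AEVs, and 42.3 CPM with against 190 CPM without in PBS, in the few nuclei that held it. Slc7a11, the cystine transporter, stood at 19.5 CPM with against 170 CPM without a resident UMI in AEVs, and 38.8 CPM with against 135 CPM without in PBS. Over the whole lipid storage list, 2 of 15 measured genes were higher and 9 lower in both libraries, with medians of -0.20 in AEVs and -0.14 in PBS, so the difference was smaller for the list than for these genes. Lysosomal genes were higher in 2 of 24 and lower in 13, with medians of -0.29 in AEVs and -0.17 in PBS.

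Several genes did not follow the split. Spp1 stood at 4393 CPM with and 4024 CPM without a resident UMI in AEVs, and at 2705 CPM with and 2333 CPM without in PBS. Ms4a7 stood at 252 CPM with against 280.4 CPM without a resident UMI in AEVs, and 257 CPM with against 321 CPM without in PBS, so this macrophage gene was held by nuclei with resident-microglia RNA at nearly the same level. The macrophage and monocyte list as a whole had 3 of 9 genes higher and 4 lower in both libraries, with medians of 0.02 in AEVs and -0.32 in PBS. Interferon-response genes were likewise divided, with 4 of 10 higher and 4 lower.

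**Figure D3:**
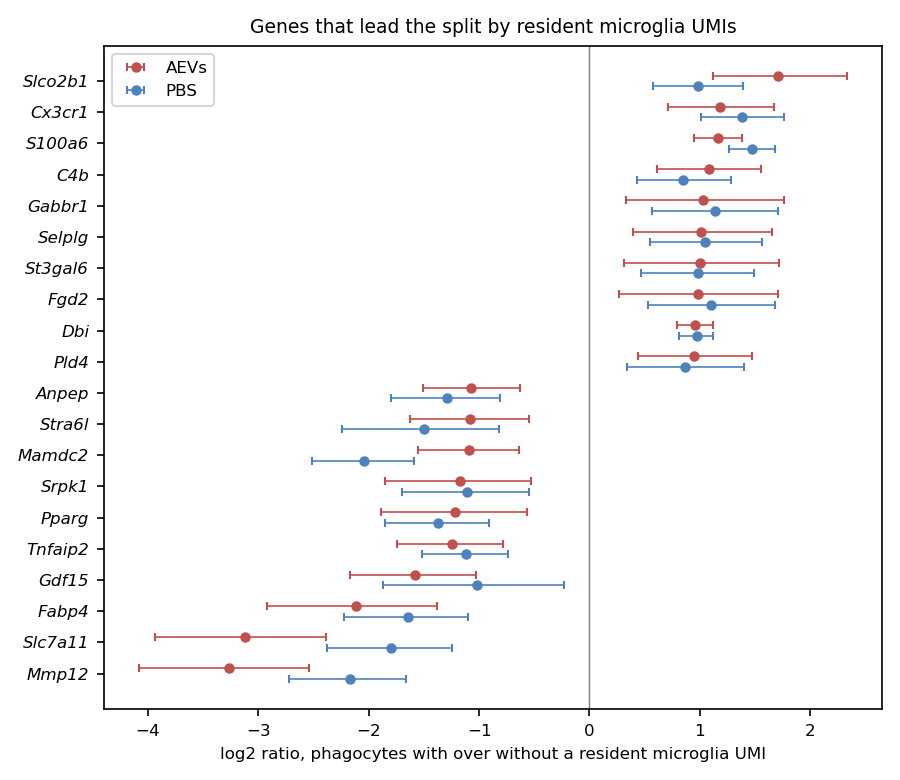
Log2 ratio of nuclei with over nuclei without a resident-microglia UMI for the 20 leading genes, AEVs and PBS as separate points, with exact intervals for counting error. Cx3cr1, S100a6 and Slco2b1 lie above 0 and Mmp12, Slc7a11, Fabp4 and Pparg below it in both libraries.

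The same order appeared along the Gpnmb count. In nuclei with 2 to 3, 4 to 7, 8 to 15 and at least 16 Gpnmb UMIs, the share with a resident UMI was 59.6%, 46.5%, 40.7% and 27.4% in AEVs and 48.3%, 35.3%, 24.7% and 19.3% in PBS. Deeper nuclei hold more UMIs of any gene, and median totals also increased over the bins, with 1744.0 in the lowest and 2838.0 UMIs in the highest in AEVs, and 2014.0 in the lowest and 2833.5 in the highest in PBS. The share with a resident UMI was therefore lower in the deeper bins. Atp6v0d2 was 138, 175, 494 and 702 CPM over these bins in AEVs and 208, 515, 909 and 1517 CPM in PBS. Lgals3 was 499, 680.2, 1073 and 1572 CPM in AEVs and 401, 571, 745 and 1020.5 CPM in PBS. These levels are per UMI, so the total depth of a nucleus is divided out.

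Pparg was 26.6, 40.3, 57.5 and 116 CPM over the bins in AEVs and 41.2, 92.4, 159.9 and 164 CPM in PBS. Apobec1 had no such order, at 1227, 1544, 1441 and 1059 CPM in AEVs and 991, 949.6, 1083 and 1158 CPM in PBS. Cathepsin L (Ctsl) was 1334, 1486, 1779 and 3425 CPM in AEVs and 568, 609, 649.8 and 1126 CPM in PBS, so it was higher in AEVs in every bin. Because the bins come from the Gpnmb count itself, these orders are descriptions.

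**Figure D4:**
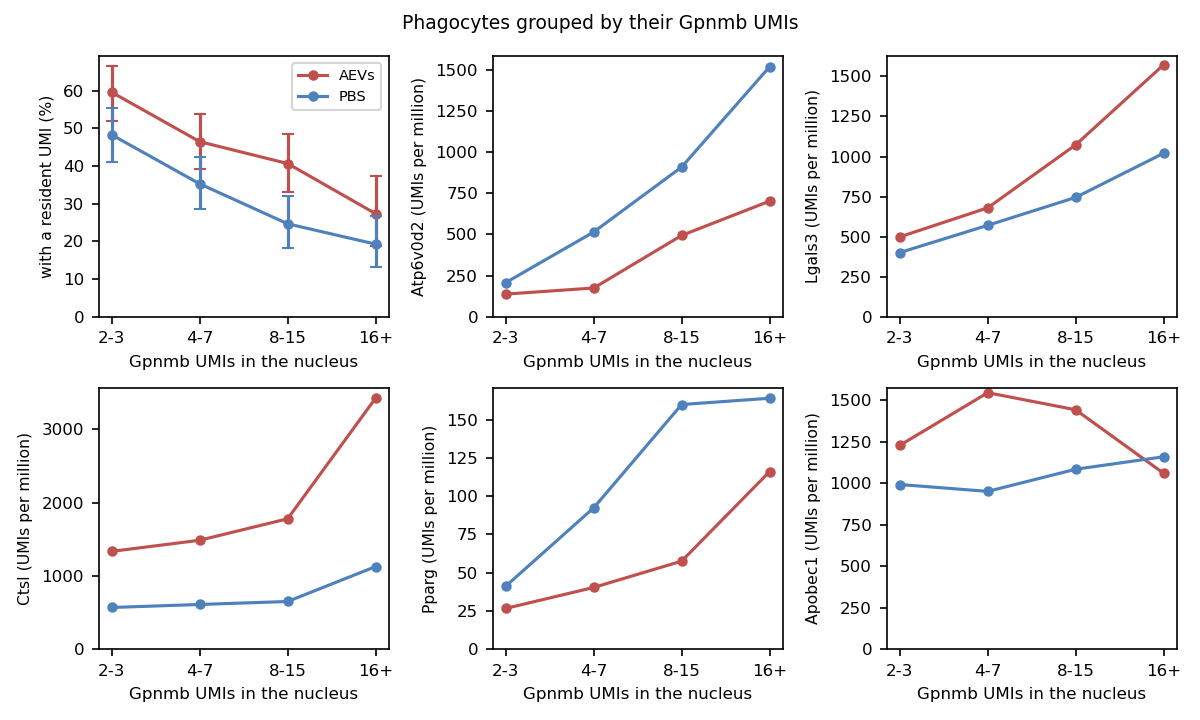
The percentage of nuclei with a resident-microglia UMI and the levels in CPM of Atp6v0d2, Lgals3, Ctsl, Pparg and Apobec1 in bins of the Gpnmb UMI count (2 to 3, 4 to 7, 8 to 15, at least 16), AEVs and PBS as separate lines, with intervals for counting error on the percentage. Atp6v0d2 and Lgals3 go up and the resident share goes down over the bins in both libraries.

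The last comparison set AEVs over PBS within Gpnmb-positive nuclei and asked which RNAs differed with the vesicle injections. Of 9489 genes with at least 50 UMIs over both libraries, 214 were at least 2-fold higher (2.26%) and 242 at least 2-fold lower (2.55%) in AEVs. By any size, 53.0% were higher and 47.0% lower in AEVs, which is the background for the list counts of this comparison. The median log2 ratio over all of them was 0.03. All 18 measured interferon-response genes and the cathepsins Ctsl and Ctss were higher in AEVs, 4 of 6 measured MHC class II genes and F13a1 were lower, and the lipid storage list had a median close to 0. No p-value belongs to these ratios.

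Of the genes that mark these nuclei, 3 were higher and 1 lower in AEVs, with 0 past 2-fold higher and 1 past 2-fold lower. Gpnmb, Cd84 and Apobec1 had log2 ratios of 0.08, 0.24 and 0.35. Atp6v0d2 was lower, at 357 CPM in AEVs and 775 CPM in PBS, a log2 ratio of -1.12 (-1.26 to -0.98). The ratio was -0.11 in nuclei with a resident UMI and -1.30 in those without. After thinning to 1000 UMIs, an Atp6v0d2 UMI was found in 22.5% of AEVs and 34.7% of PBS nuclei.

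Interferon-response genes encode proteins that cells make on receiving type I interferon, many of which restrict viruses. All 18 that were measured, of 20 listed, were higher in AEVs, with log2 ratios of 0.33 to 1.96 and a median of 1.02, and 9 were past 2-fold. The 2 not measured had few UMIs, with Cxcl10 at 5 in AEVs and 38 in PBS, opposite to the rest, and Ifi44 at 19 in AEVs and 13 in PBS. Rsad2, the antiviral enzyme viperin, stood at 43.7 CPM in AEVs and 11.2 CPM in PBS, a log2 ratio of 1.96 (1.28 to 2.69). Oasl2, of the oligoadenylate synthetase family, stood at 185 CPM in AEVs and 54.8 CPM in PBS, and was found in 209 AEVs nuclei (33.1%) and 90 PBS nuclei (12.7%). The share of nuclei with a UMI thus differed along with the level. Usp18, which removes the ubiquitin-like protein Isg15 from its targets, stood at 64.3 CPM in AEVs and 17.8 CPM in PBS, and Irf7, a factor that amplifies interferon production, at 32.5 CPM in AEVs and 11.7 CPM in PBS.

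These differences were not limited to Gpnmb-positive nuclei. In P2ry12-type nuclei 18 of the interferon genes were higher in AEVs, with a median of 1.11 and 11 past 2-fold, where 55.9% of all measured genes were higher, and Oasl2 stood at 236 CPM in AEVs and 55.1 CPM in PBS. In neuron-marker nuclei Oasl2 stood at 5.60 CPM in AEVs and 2.96 CPM in PBS. Within Gpnmb-positive nuclei the median was 0.93 with and 0.98 without a resident UMI.

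The promoters of 3 of these genes are shown because they hold the letters that interferon-activated factors are known to bind. The sequences are from RefSeq (GRCm38.p6), 5′ to 3′ on the strand of the gene, with the motif in capitals. The motif is GAAA, any 2 bases, then GAAA, or its reverse complement. Overlapping matches in Isg15 form 1 run of capitals.
Ifit3: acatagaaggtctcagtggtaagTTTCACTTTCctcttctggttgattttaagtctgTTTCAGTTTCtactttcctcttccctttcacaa
Isg15: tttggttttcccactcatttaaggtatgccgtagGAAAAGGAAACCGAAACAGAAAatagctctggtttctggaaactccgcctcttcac
Rsad2: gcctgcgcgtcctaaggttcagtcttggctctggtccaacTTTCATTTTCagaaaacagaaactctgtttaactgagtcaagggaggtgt
The Ifit3 stretch is chr19:34583350-34583439 on the plus strand, with 2 matches. The Isg15 stretch is chr4:156200841-156200930 on the minus strand, with 3 overlapping matches. The Rsad2 stretch is chr12:26456523-26456612 on the minus strand, with 1 match. On both strands, from 250 bases before to 50 after the start, 9 of the 16 interferon genes found in the RefSeq table held the motif (56.2%). So did 1079 of 27025 gene symbols in all (3.99%). A gene with more than 1 promoter was counted when any of them matched. A match is a string of letters, and binding was not measured. Ifit3 stood at 50.8 CPM in AEVs and 22.5 CPM in PBS, and Isg15 at 40.1 CPM in AEVs and 27.2 CPM in PBS.

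Lysosomal genes were higher in AEVs in 20 of 25 and lower in 5, with a median of 0.35, 2 past 2-fold higher and none lower. Ctsl (chr13:64359337-64370890, minus strand), the protease cathepsin L, stood at 1918 CPM in AEVs and 736 CPM in PBS, a log2 ratio of 1.38 (1.29 to 1.47), and was found in 87.5% of AEVs nuclei and 68.8% of PBS nuclei. Ctss stood at 4082 CPM in AEVs and 1891 CPM in PBS, a log2 ratio of 1.11 (1.05 to 1.17). Lamp1, of the lysosomal membrane, stood at 751 CPM in AEVs and 439 CPM in PBS, and Pld3, a lysosomal nuclease, at 442 CPM in AEVs and 236 CPM in PBS. Cathepsin D (Ctsd) was nearly level, at 3636 CPM in AEVs and 3364 CPM in PBS. Ctsl was also higher elsewhere, at 1399.6 CPM in AEVs and 775 CPM in PBS in P2ry12-type nuclei, and at 104 CPM in AEVs and 61.1 CPM in PBS in neuron-marker nuclei. The part of free RNA in the ratio of Gpnmb-positive nuclei was not tested.

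The Ctsl promoter is shown for its match to CACGTG, in capitals, a core that factors of the Mitf and Tfeb family are known to bind at lysosomal genes; the motif reads the same on both strands.
Ctsl: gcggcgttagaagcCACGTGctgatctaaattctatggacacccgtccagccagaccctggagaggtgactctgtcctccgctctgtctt
The stretch is chr13:64370681-64370770 on the minus strand (RefSeq, GRCm38.p6). Its motif is at position -236 from the RefSeq start used. By the gene coordinates given above, which begin further upstream, the stretch lies inside Ctsl and not before it. Of 19 lysosomal genes found in the table, 6 held the motif (31.6%), as did 2187 of 27025 gene symbols (8.09%). Mitf stood at 601 CPM in AEVs and 859 CPM in PBS, a lower level in AEVs, and Tfeb at 45.5 CPM in AEVs and 69.3 CPM in PBS.

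Lipid storage and metabolism genes were divided, with 9 higher and 10 lower of 19 measured and a median of -0.01. Plin2 stood at 221 CPM in AEVs and 228 CPM in PBS, and Soat1 at 369.5 CPM in AEVs and 427 CPM in PBS. Ch25h, which makes the signalling lipid 25-hydroxycholesterol, was the one gene of the list past 2-fold, lower at 14.8 CPM in AEVs and 55.7 CPM in PBS, a log2 ratio of -1.92 (-2.60 to -1.29). Of the efflux genes, 2 of 6 were higher and 4 lower, with a median of -0.34. Abca1 was lower at 769 CPM in AEVs and 1333 CPM in PBS, while Apoe, the apolipoprotein that takes up exported cholesterol, was higher at 19970.1 CPM in AEVs and 13876 CPM in PBS. For cholesterol synthesis, 5 of 9 genes were higher, the median was 0.04, and Fdps alone was past 2-fold, at 28.3 CPM in AEVs and 12.6 CPM in PBS.

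The transcription factors were divided too, with 8 of 15 higher and 7 lower and a median of 0.13. Pparg stood at 56.7 CPM in AEVs and 112 CPM in PBS, a log2 ratio of -0.99 (-1.34 to -0.64), and Cd36, among its known targets, at 36.0 CPM in AEVs and 72.1 CPM in PBS. Tfec was higher at 55.5 CPM in AEVs and 34.6 CPM in PBS. Of the receptors, 10 of 16 were higher and 6 lower, with a median of 0.09. Fcgr1 stood at 107 CPM in AEVs and 48.2 CPM in PBS, the one receptor past 2-fold higher, and Trem2 at 742 CPM in AEVs and 495 CPM in PBS. Mertk, which binds dying cells through bridging proteins, was lower at 894 CPM in AEVs and 1175 CPM in PBS.

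Damage-associated genes were higher in 11 of 15 and lower in 4, with a median of 0.24. Spp1 stood at 4213 CPM in AEVs and 2481 CPM in PBS, although the share of nuclei with a Spp1 UMI was 75.8% in AEVs and 77.9% in PBS, so similar shares of nuclei held it at different levels. Iron and heme genes were higher in 9 of 13 and lower in 4, with a median of 0.31. Fth1, the ferritin heavy chain, stood at 4441 CPM in AEVs and 2784 CPM in PBS, and Hmox1 at 67.9 CPM in AEVs and 37.9 CPM in PBS. Inflammatory genes were measured in 8 of 14, with 3 higher and 5 lower and a median of -0.12. Il1b had 0 UMIs in AEVs and 4 in PBS, and Il6 had 0 in both libraries, too few for a comparison.

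Homeostatic genes were higher in 7 of 13 and lower in 6, with a median of 0.32. Fcrls, a microglial scavenger receptor of mice, was lower at 67.3 CPM in AEVs and 177 CPM in PBS. The median moved to -0.01 when both libraries were given the same mix of nuclei with and without a resident UMI, an alternative added after the data were seen. The cell-cycle list had 4 of 23 genes measured, 3 higher and 1 lower, with a median of 0.16. A UMI of Top2a or Mki67, which dividing cells hold, was found in 8 of 632 AEVs nuclei (1.27%) and 21 of 706 PBS nuclei (2.97%). The share was also lower in AEVs elsewhere, at 0.755% in AEVs and 1.34% in PBS in P2ry12-type nuclei. In neuron-marker nuclei it was 0.439% in AEVs and 0.847% in PBS.

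MHC class II genes, whose products present antigen to helper T cells, were measured in 6 of 8, with 2 higher and 4 lower, all 4 past 2-fold, and a median of -2.16. H2-Aa (chr17:34282744-34287823, minus strand) had 6 UMIs in AEVs and 150 in PBS, or 3.54 CPM in AEVs and 70.2 CPM in PBS, a log2 ratio of -4.31 (-5.78 to -3.15). Cd74, the invariant chain, stood at 22.4 CPM in AEVs and 140.5 CPM in PBS. The RNAs of H2-Aa, H2-Ab1, H2-Eb1 and Cd74 were held by few nuclei. At least 3 UMIs of them together were found in 4 AEVs nuclei (0.633%) and 36 PBS nuclei (5.10%). The chaperone genes H2-DMa, at 34.8 CPM in AEVs and 27.2 CPM in PBS, and H2-DMb1, at 25.4 CPM in AEVs and 22.5 CPM in PBS, were nearly level. At least 1 UMI of H2-Aa, H2-Ab1, H2-Eb1 or Cd74 was found in 47 AEVs nuclei (7.44%) and 118 PBS nuclei (16.7%). In P2ry12-type nuclei H2-Aa stood at 10.3 CPM in AEVs and 87.5 CPM in PBS, and in neuron-marker nuclei at 0.393 CPM in AEVs and 1.94 CPM in PBS. The share of P2ry12-type nuclei with any UMI of H2-Aa, H2-Ab1, H2-Eb1 or Cd74 ran the other way, at 17.6% in AEVs and 12.7% in PBS. With at least 3 such UMIs it did not, at 1.51% in AEVs and 1.82% in PBS. Neuron-marker nuclei held any such UMI in 2.33% in AEVs and 7.59% in PBS, so the background also differed. Without the nuclei that had at least 3 fibroblast UMIs, the median of the list was -1.07.

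The macrophage and monocyte list had 11 of 20 genes measured, 4 higher and 7 lower, with a median of -0.46 and F13a1 alone past 2-fold. F13a1 (chr13:36867178-37050244, minus strand) stood at 30.7 CPM in AEVs and 224 CPM in PBS, a log2 ratio of -2.87 (-3.31 to -2.45). It was found in 24 AEVs nuclei (3.80%) and 100 PBS nuclei (14.2%), and after thinning in 2.30% of AEVs and 10.9% of PBS nuclei. In neuron-marker nuclei it was at 2.33 CPM in AEVs and 1.31 CPM in PBS. The ratio was -2.81 with and -2.85 without a resident UMI. Lyz2 stood at 1227 CPM in AEVs and 2015 CPM in PBS. Chil3 and Arg1, genes of alternatively activated macrophages, were under the minimum, with Chil3 at 35 UMIs in AEVs and 5 in PBS and Arg1 at 33 UMIs in AEVs and 10 in PBS, and few nuclei held them. Chil3 was found in 12 AEVs nuclei (1.90%) and 5 PBS nuclei (0.708%), and Arg1 in 11 AEVs nuclei (1.74%) and 8 PBS nuclei (1.13%). The 5 nuclei with most Arg1 held 78.8% of its UMIs in AEVs and 70.0% in PBS.

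Genes that led the AEVs over PBS ratio beyond the lists included Gpx3, a secreted glutathione peroxidase, with 161 UMIs in AEVs (17.6% of nuclei) and 52 UMIs in PBS (5.67%). Rbm3, an RNA-binding protein induced by cold, stood at 204 CPM in AEVs and 64.1 CPM in PBS, and Hcst, a signalling adaptor of leukocytes, at 40.7 CPM in AEVs and 13.1 CPM in PBS. The noncoding Snhg4 stood at 36.0 CPM in AEVs and 7.49 CPM in PBS; its symbol belongs to more than one identifier in the files, and one was used. Igf1os stood at 33.6 CPM in AEVs and 9.83 CPM in PBS, but it lies antisense to and overlaps Igf1, and whether counting used strand is not given, so reads of the pair may not be separable. Of the genes lower in AEVs, Cd5l, a secreted scavenger protein of macrophages, stood at 3.54 CPM in AEVs and 27.2 CPM in PBS, and Dkk2, an inhibitor of Wnt signalling, at 15.3 CPM in AEVs and 93.2 CPM in PBS, with a UMI in 19 AEVs and 106 PBS nuclei.

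Col1a1 and Col3a1, collagens of fibroblasts, were also among the leading lower genes, with Col1a1 at 24.8 CPM in AEVs and 309.9 CPM in PBS. Col1a1 was lower in other nuclei as well, at 16.2 CPM in AEVs and 101 CPM in PBS over all other kept nuclei. C3, a complement protein, was at 24.2 CPM in AEVs and 217 CPM in PBS, with 5 nuclei holding 70.7% of its UMIs in AEVs and 79.3% in PBS. Apod, an apolipoprotein, ran opposite to the collagens, at 3159 CPM in AEVs and 1109 CPM in PBS in Gpnmb-positive nuclei and at 5398 CPM in AEVs and 1201 CPM in PBS in all other kept nuclei. The RNA of other cells thus differed between the libraries in both directions, and its part in the ratios above was not tested.

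**Figure D5:**
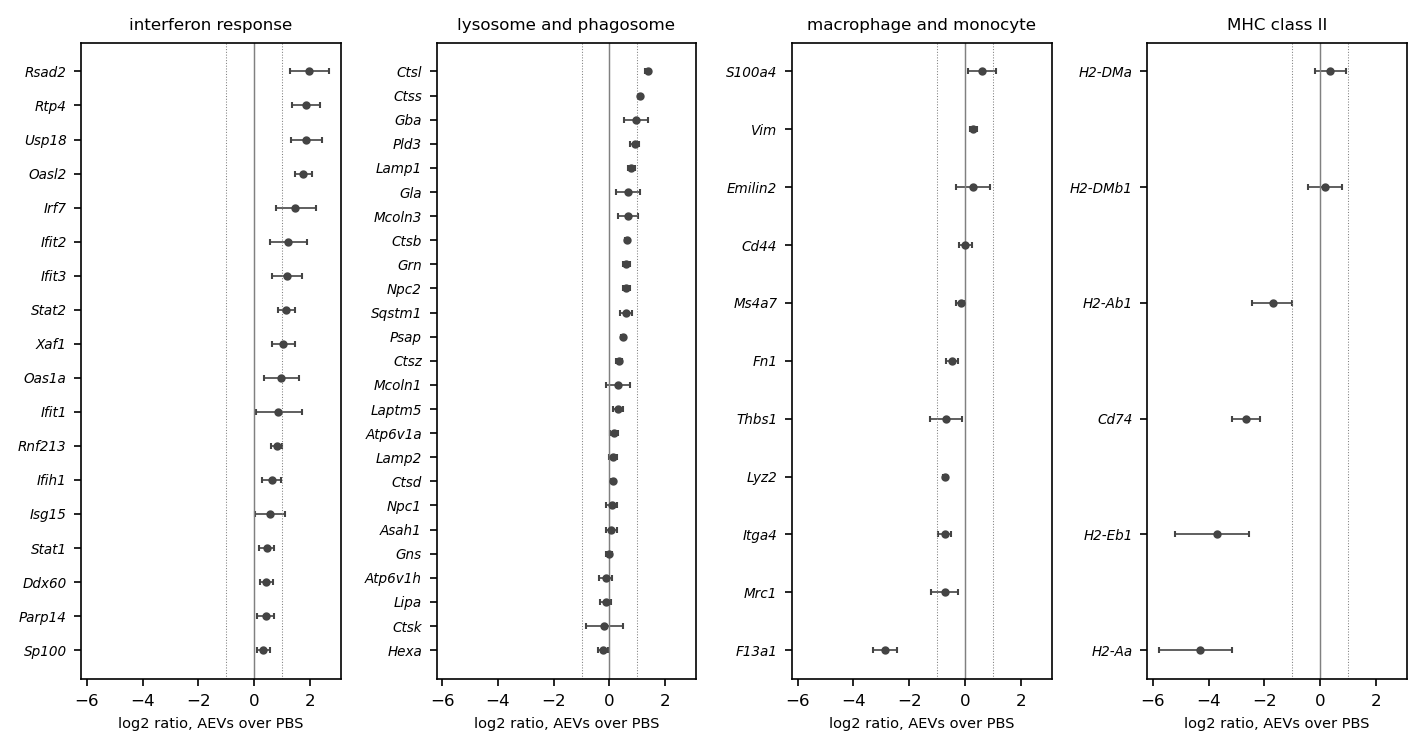
Log2 ratio of AEVs over PBS in Gpnmb-positive nuclei for each measured gene of the interferon-response, lysosome and phagosome, macrophage and monocyte, and MHC class II lists, with exact intervals for counting error and dotted lines at 2-fold. All 18 interferon genes lie above 0, and H2-Aa, H2-Eb1, Cd74, H2-Ab1 and F13a1 lie more than 2-fold below it.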

How the data were processed

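Nuclei of frozen mouse spinal cord were profiled with a SeekGene droplet kit for the 3-prime ends of RNA, per the labels' protocols. The authors deposited UMI counts for each gene in each barcode, whole and unscaled, with 500 UMIs as the lowest total. The submitters' processing notes name the build mm10 and Seurat, without a version. Which aligner and annotation were used, and whether free RNA or doublets were removed, is not given in the sources used here. Of 32285 gene identifiers, 32158 were found in GENCODE M21, from which coordinates come, and 0 columns of other samples were present.

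Barcodes with under 300 genes (4 in AEVs, 5 in PBS) or at least 5% mitochondrial UMIs (103 and 527) were left out. UMIs were summed per library over the nuclei named and divided by their total. Levels carry Poisson, shares Clopper-Pearson and ratios exact conditional binomial intervals, computed with Python 3.11.15, numpy 2.4.6, scipy 1.17.1 and pandas 2.3.3 and tested on simulated data. Genes counted as measured had at least 50 UMIs over both libraries, or in each library where nuclei were compared within it. Alternatives used Scrublet (scanpy 1.11.5), edgeR 4.0.16 TMM and DESeq2 1.42.0 size factors, thinning, other thresholds and other minima. Doublet calls were kept in the values given.

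The rule, the 17 gene lists, the 16 marker lists and the tests were chosen with earlier results of these data known. Genes named are those of the lists, the 10 highest and 10 lowest AEVs over PBS ratios, the 15 highest and 10 lowest ratios over P2ry12-type nuclei, and the 10 highest and 10 lowest for nuclei with over without a resident UMI. These needed 50 UMIs and a UMI in 5% of nuclei of the higher group, and for AEVs over PBS a level at least that of all other nuclei. Mitochondrial, ribosomal, hemoglobin and predicted genes were left out.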

Additional observations from a re-analysis of the deposited data

Results flagged for a closer look

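Some genes had log2 ratios of AEVs over PBS on opposite sides of 0 in nuclei with and without a resident-microglia UMI, with both counting intervals clear of 0. The difference itself was not tested, since each group is 1 library. Tyrobp, a signalling adaptor, was at -0.44 (-0.59 to -0.28) with and 0.23 (0.08 to 0.38) without such a UMI. Ctsd was at -0.18 (-0.26 to -0.11) and 0.36 (0.29 to 0.43). Vim, an intermediate filament protein, was at -0.20 (-0.38 to -0.03) and 0.81 (0.62 to 1.01). Slc7a11 was at -0.99 (-1.93 to -0.10) and 0.34 (0.00 to 0.67), the second interval reaching 0 when rounded, and the transporter gene Abca9 at -0.56 (-1.03 to -0.09) and 0.91 (0.22 to 1.61). The astrocyte marker Slc1a2 was at -0.80 (-1.03 to -0.57) and 0.26 (0.02 to 0.50), and the fibroblast marker Dcn at 0.63 (0.33 to 0.93) and -1.16 (-1.58 to -0.75). These last 2 genes belong to other cell types. At least 3 fibroblast-marker UMIs were held by 14 AEVs and 25 PBS nuclei with a resident UMI. Without a resident UMI, 10 AEVs and 60 PBS nuclei held them.

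Other genes had such opposite ratios in Gpnmb-positive nuclei and in P2ry12-type nuclei, again not tested. Colec12, a scavenger receptor of the collectin family, was at 0.64 (0.54 to 0.74) in Gpnmb-positive and -1.09 (-1.33 to -0.87) in P2ry12-type nuclei. Spp1 was at 0.76 (0.71 to 0.82) and -0.13 (-0.25 to -0.01). Fabp5 was at 0.42 (0.31 to 0.54) and -0.21 (-0.41 to -0.01), and Ctsd at 0.11 (0.06 to 0.16) and -0.46 (-0.52 to -0.41). F13a1 was at -2.87 (-3.31 to -2.45) and 0.57 (0.24 to 0.90). The second F13a1 ratio rests on 26 AEVs and 13 PBS nuclei of the P2ry12 type that held a UMI of it. Siglech, whose count helps to define the P2ry12-type nuclei, was at 0.81 (0.16 to 1.47) and -0.33 (-0.45 to -0.21).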

How the results depend on the processing

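The share of Gpnmb-positive nuclei kept a ratio of 0.763 to 0.855 over 9 alternatives, and the share with a resident UMI 1.30 to 1.81, the highest after thinning. The 42 gene ratios of AEVs over PBS that were 2-fold or more kept their sign in 517 of 517 alternatives that gave a value, and stayed 2-fold in 496. Some settings gave no value for some genes. After thinning, of 235 gene results, 131 were the same, 47 moved and the others had no value. TMM and DESeq2 scaling shifted every log2 ratio by -0.02 and -0.03, too little to change the sign of a 2-fold ratio. The 42 also include genes chosen for their high or low ratios. Counts of genes past 2-fold depended on the settings: of 214 higher and 242 lower genes, thinning gave 114 and 114, a minimum of 200 UMIs gave 43 and 66, and a minimum of 1 UMI gave 3016 and 2749. Leaving out doublet calls gave 412 lower genes, and leaving out nuclei with 3 fibroblast UMIs, added after the data were seen, gave 142. After thinning, 3 genes were past 2-fold higher with a resident UMI, against 7.

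List medians moved in 12 of 248 alternatives. Without doublet calls the Gpnmb-associated genes had 0.27, and the genes high over all AEVs nuclei, led by Apod, 0.67 against 1.36. The damage-associated median was 0.48 with at most 1 neuronal UMI and 0.49 after thinning, the inflammatory median 0.34 with at least 200 UMIs, and the macrophage median -0.10 with at least 1 Gpnmb UMI. The homeostatic median changed sign, to -0.01 with at least 4 Gpnmb UMIs, -0.07 with at least 200 UMIs and -0.01 with the same subgroup mix. The cell-cycle median was -0.67 with at least 1 UMI. Without fibroblast-marker nuclei the MHC class II median was -1.07 and the glucocorticoid-responsive median 0.69 against 0.36. The cause of each was not tested. No paired analysis was possible because each group is 1 pooled library.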

Other observations

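Lists not described above gave these values for AEVs over PBS in Gpnmb-positive nuclei. Genes that respond to glucocorticoids were higher in 9 of 11 measured and lower in 2, with a median log2 ratio of 0.36 and Hif3a alone past 2-fold, at 34.2 CPM in AEVs and 10.8 CPM in PBS. Of 7 genes known from earlier results to be high over all AEVs nuclei, 4 were measured and all were higher, 3 past 2-fold, with a median of 1.36; the integrin Itgad stood at 25.4 CPM in AEVs and 4.21 CPM in PBS. Schwann cell markers summed to 371 CPM in AEVs and 190.1 CPM in PBS, erythroid markers to 93.9 CPM in AEVs and 55.7 CPM in PBS, mural markers to 94.4 CPM in AEVs and 54.3 CPM in PBS, endothelial markers to 152 CPM in AEVs and 158 CPM in PBS, astrocyte markers to 1287 CPM in AEVs and 1807 CPM in PBS, oligodendrocyte precursor markers to 211 CPM in AEVs and 314 CPM in PBS and neuron markers to 645 CPM in AEVs and 649 CPM in PBS.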
